A study of Rattus norvegicus with 14 samples.

Results

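The genes described here encode the proteins of the cytosolic ribosome. They were chosen by symbol, as every Rpl, Rplp or Rps gene number and Rpsa. Mitochondrial ribosomal proteins and ribosomal protein kinases fall outside this rule. It would admit some paralogs, but the genes tested did not carry their symbols. The rule found 68 genes among the 14497 genes with a single-symbol probe set on the array, 42 of the large subunit and 26 of the small subunit. All 68 lie within a standard set of 79 cytosolic ribosomal proteins, of which 10 were not analysed here. Fau, whose product includes a small-subunit protein, was measured but its symbol lies outside the rule.

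The samples were foreskins of male rat pups on postnatal day 5. Sprague Dawley dams had been gavaged daily on gestational days 16 to 20, either with corn oil, the vehicle, or with flutamide at 5 mg/kg/day, an antagonist of the androgen receptor. Each group held 7 litters, each sample pooled 2 foreskins from 1 litter, and 50 ng of RNA was amplified for 1 Affymetrix Rat Gene 1.0 ST array. The treatment therefore ended before birth, and RNA was taken from whole skin with all its cell types. Precision is limited by the number of arrays, and every p-value below measures the spread between litters.

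Ribosomes are built from ribosomal RNA and a fixed set of proteins, nearly all of them present in 1 copy per particle, so cells make the proteins in matched amounts. Much of that matching occurs in translation: most ribosomal protein mRNAs begin with a C followed by an unbroken run of pyrimidines, the 5′ terminal oligopyrimidine tract, known as TOP, through which mTOR signalling and LARP1 control their use by ribosomes. An array of total RNA reads mRNA abundance and not this translational step. Skin that is growing and laying down collagen and keratin, as in newborn rats, is rich in these mRNAs.

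The starts of the genes are shown here because the TOP tract is the sequence feature that these genes are known to share. The sequences come from RefSeq on build GRCr8, whose table held 58 of the 68 genes. Each runs 5′ to 3′ over the 15 bases before the annotated start and the first 15 transcribed bases, and capitals mark the unbroken run of C and T that holds the first transcribed base. Rps27, Rps7 and Rps21 are shown from the low end of the differences between flutamide and corn oil litters and Rpl10, Rps10 and Rpl36 from the high end, although none of them passed the test. Of the 68 genes, Rpl38 and Rps15 varied most between litters and Rps6 least.
Rps27: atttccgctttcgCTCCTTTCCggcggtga
Rps7: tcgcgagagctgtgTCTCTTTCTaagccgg
Rps21: gaacgagccaCTTCCTTTCTgtgttctccg
Rpl10: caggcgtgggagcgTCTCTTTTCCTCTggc
Rps10: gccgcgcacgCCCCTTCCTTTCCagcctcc
Rpl36: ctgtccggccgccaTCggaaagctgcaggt
Rpl38: cttcgttctttttccgttgttcggtgctcg
Rps15: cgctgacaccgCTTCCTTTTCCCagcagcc
Rps6: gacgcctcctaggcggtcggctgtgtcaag

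These windows lie at chr2:177964592-177964621 (minus strand) for Rps27, chr6:50999431-50999460 (minus) for Rps7, chr3:187724023-187724052 (plus) for Rps21 and chrX:157205835-157205864 (plus) for Rpl10. They lie at chr20:5700730-5700759 (minus) for Rps10, chr9:1533765-1533794 (plus) for Rpl36 and chr10:100200420-100200449 (plus) for Rpl38. For Rps15 the window is chr7:10068101-10068130 (minus) and for Rps6 chr5:106420526-106420555 (minus). In all of them the first 15 bases are upstream of the gene and the last 15 are the beginning of the first exon. Rps27, Rps7, Rpl10 and Rps15 have a C at the annotated start followed by at least 4 pyrimidines. In Rps21 and Rps10 the pyrimidine run crosses the annotated start, which falls on a T. Rpl36 has only a short run, and Rpl38 and Rps6 have a G at the annotated start. Whether the annotated starts are those used in foreskin was not tested, so these letters do not show that a gene lacks a TOP tract.

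A C followed by 4 bases that are each C or T stood at the annotated start of 23 of the 58 genes (39.7%), against 2.63% of the 33469 starts in the table and 2.47% of the genes on the array. Among mitochondrial ribosomal protein genes it stood at 2 of 62 starts. Within 5 bases of the start, the same pattern was found in 37 of the 58 genes (63.8%) and in 17% of all starts. These searches read the transcribed strand.

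Other motifs were searched on both strands of the 250 bases before and 50 bases after each start. CTTCC, the core letters of sites for ETS-family factors, occurred in 51 of 58 promoters (87.9%), in 70.1% of all starts and in 51 of 62 mitochondrial ribosomal protein genes (82.3%). The longer ACTTCCG, which contains CTTCC, occurred in 17 of 58 (29.3%), in 6.32% of all starts, in 9.86% of genes on the array and in 13 of 62 mitochondrial ones (21%). CTTTCC occurred in 28 of 58 (48.3%), in 26.4% of all starts and in 33.9% of mitochondrial ones. TATAAA between 40 and 20 bases before the start, on the transcribed strand, occurred in 2 of 58 (3.45%) and in 1.37% of all starts. A match here is a description of the letters only.

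The values are log2 RMA expression values, 1 per probe set. A gene was represented by its brightest single-symbol probe set. Such a value depends on how well its probes bind, so levels of different genes are not ranked against each other as transcript abundances. The 68 genes nevertheless lay near the top of the array: 66 of them were among the 1450 brightest genes, and the exceptions were Rps27, with a mean of 6.02, and Rpl15, with a mean of 7.10. Skin markers were high. Suprabasal keratins Krt1 and Krt10 had mean values of 11.94 and 12.34, basal keratin Krt14 9.85 and the fibroblast proteoglycan Dcn 11.11. These markers do not tell foreskin from other skin. Of the 5 measured testis germ cell markers, set as a negative list, means ran from 2.13 for Dazl to 6.32 for Prm1. Prm1 lay above the median of all genes, 5.89, so this list does not mark a floor.

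The comparison of flutamide with corn oil litters asks whether blocking androgen action before birth left a difference in the mRNA of the ribosome in the newborn foreskin. No ribosomal protein gene passed the test. With limma and Benjamini-Hochberg adjustment over all 14497 genes, 0 of the 68 had an adjusted p under 0.05, and the lowest was 0.348. The same threshold called 0.0069% of all genes. At an unadjusted p under 0.05, 3 of the 68 were lower (background 3.46% of all genes) and 1 was higher (background 5.7%), 4 in all against a background of 9.16%.

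The median difference of the 68 genes, flutamide minus corn oil, was -0.041 on the log2 scale, a ratio of 0.972. The differences ranged from -0.24 to 0.19. The median was 0.003 with array SD as a covariate and 0.007 without corn oil litter 1 and flutamide litter 7. Array SD is the spread of the values of the 14497 genes on an array, 1 probe set per gene. The difference was below 0 in 50 of 68 genes (73.5%), against 47.7% of all genes tested. Without those 2 litters, the ends of the range of array spread, 32 of 68 genes (47.1%) were below 0, against 47.2% of all genes. With array SD as a covariate 33 were. The mean of the 68 genes was also highest of all 14 litters in corn oil litter 1 (10.54) and lowest in flutamide litter 7 (10.20). Leaving both out therefore had to raise the mean difference. Array SD is computed from values that include the 68 genes, so neither setting is an independent check. The median difference was 0.005 over all genes and -0.008 over the 1450 brightest genes, of which 54.1% were below 0. In whole tissue, fewer cells of a type and less RNA per cell cannot be told apart.

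The data bound the differences closely. The 95% confidence interval excluded a 1.5-fold difference in either direction for all 68 genes and a 1.2-fold difference for 50 of them. The same bounds held for 99.3% and 70.1% of all genes tested. Over the 1450 brightest genes they held for 99.7% and 87.4%, so the 1.2-fold bound held less often in the 68 genes (73.5%). In no ribosomal gene did the 2 groups of litters stand apart without overlap (background 0.124% of all genes).

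**Figure D1:**
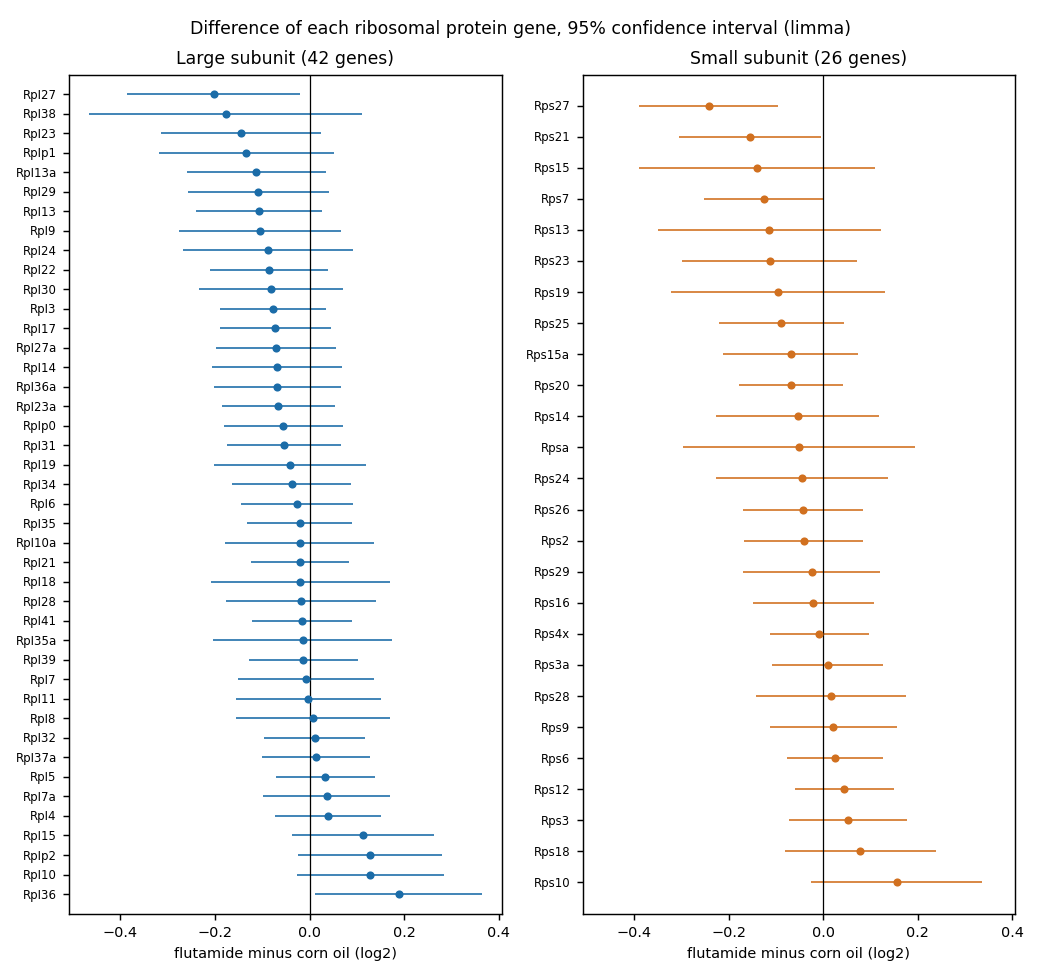
Difference between flutamide and corn oil litters for each of the 68 ribosomal protein genes (log2, point) with its 95% confidence interval from limma (line), large subunit on the left and small subunit on the right, ordered by difference. Points run from -0.24 for Rps27 to 0.19 for Rpl36, and no gene had an adjusted p under 0.05.

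Both subunits gave like values. The median difference was -0.032 over the 42 large-subunit genes, 32 of them below 0, and -0.044 over the 26 small-subunit genes, 18 of them below 0. The mean over large-subunit genes was 10.55 ± 0.07 (SD, n = 7) in corn oil litters, from 10.45 to 10.67, and 10.51 ± 0.09 (SD, n = 7) in flutamide litters, from 10.35 to 10.63. The mean over small-subunit genes was 10.19 ± 0.07 (SD, n = 7) in corn oil litters and 10.15 ± 0.10 (SD, n = 7) in flutamide litters, and for both subunits the groups overlapped.

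Within a litter the 2 subunits stood at a nearly fixed distance. The large-subunit mean minus the small-subunit mean was 0.361 ± 0.019 (SD, n = 7) in corn oil litters, between 0.340 and 0.397. It was 0.369 ± 0.019 (SD, n = 7) in flutamide litters, between 0.333 and 0.392. The groups differed by 0.0075 in this distance, less than the spread between litters. The litters' own subunit means were much farther apart, as the ranges above show.

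Among small-subunit proteins, Rps27, a zinc finger protein of the small subunit, had the lowest difference. Its values in corn oil litters were 5.96 at the lowest, 6.07 at the median and 6.36 at the highest, and in flutamide litters 5.74, 5.87 and 6.07. All 7 flutamide litters were below the corn oil median, and 5 were below every corn oil litter. The difference was -0.24 (SE 0.07; limma adjusted p = 0.348), a ratio of 0.845. Its probe set has the lowest mean value of the 68.

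Rps21, a small protein of the same subunit, ran from 9.01 through 9.11 to 9.34 in corn oil litters and from 8.72 through 8.95 to 9.26 in flutamide litters. Most flutamide litters lay near or under the low end of the corn oil litters, but 1 lay near their top. The difference was -0.16 (SE 0.07; limma adjusted p = 0.537). Rps7, which acts early in the assembly of the small subunit, differed by -0.13 (SE 0.06; limma adjusted p = 0.544), with corn oil litters at 10.42 ± 0.05 (SD, n = 7) and flutamide litters at 10.30 ± 0.13 (SD, n = 7). Its corn oil litters lay close together and its flutamide litters spread below and among them.

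Rps10, a protein of the small-subunit head that is marked with ubiquitin when ribosomes collide, was at the other end. Corn oil litters averaged 10.56 ± 0.10 (SD, n = 7) and flutamide litters 10.72 ± 0.23 (SD, n = 7), which differ by 0.16 (SE 0.09; limma adjusted p = 0.612). Flutamide litter 2 was the lowest of all 14 at 10.32 and flutamide litter 6 the highest at 11.05. Rps18 differed by 0.08 (SE 0.08). As a mean over all its probe sets, Rps10 differed by -0.09 and Rps18 by -0.17. The 3 probe sets of Rps18 differed by 0.08, -0.05 and -0.54, and the dimmest had a mean of only 1.24.

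Rps6, the protein that S6 kinase phosphorylates downstream of mTOR, had the smallest spread of the 68. Its values lay between 10.68 and 10.76 in corn oil litters, with a median of 10.71, and between 10.61 and 10.79 in flutamide litters, with a median of 10.75. The groups overlapped, and the difference was 0.02 (SE 0.05). Rps19, the gene most often mutated in Diamond-Blackfan anaemia, was at 9.52 ± 0.26 (SD, n = 7) and 9.43 ± 0.20 (SD, n = 7), a difference of -0.10 (SE 0.11), which was -0.028 without corn oil litter 1.

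Among large-subunit proteins, Rpl27 had the lowest difference. Its values were 10.28, 10.41 and 10.62 at the lowest, median and highest corn oil litter and 9.93, 10.21 and 10.49 in flutamide litters. The ranges overlapped, with 4 flutamide litters under every corn oil litter. The difference was -0.20 (SE 0.09; limma adjusted p = 0.502). Rpl23, a protein of the face that joins the small subunit, differed by -0.15 (SE 0.08; limma adjusted p = 0.613), and by -0.085 without flutamide litter 7.

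Rpl36 had the highest difference of the 68. Corn oil litters had 11.00 at the lowest, 11.24 at the median and 11.52 at the highest, and flutamide litters 11.23, 11.40 and 11.75. The groups overlapped over much of their range. The difference was 0.19 (SE 0.08; limma adjusted p = 0.518), but the mean over all its probe sets differed by -0.13.

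Rpl10, which is added late and completes the catalytic centre of the large subunit, differed by 0.13 (SE 0.07; limma adjusted p = 0.629), with all 7 flutamide litters above the corn oil median. Rpl15 differed by 0.11 (SE 0.07; limma adjusted p = 0.668), with corn oil litters at 7.05 ± 0.15 (SD, n = 7) and flutamide litters at 7.16 ± 0.11 (SD, n = 7). Rpl3, which lies near the catalytic centre, differed by -0.08 (SE 0.05). Its corn oil litters stood between 10.58 and 10.62 except litter 6 at 10.42.

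The stalk of the large subunit, which recruits translation factors, is built from Rplp0, Rplp1 and Rplp2. Their differences were -0.06 (SE 0.06), -0.13 (SE 0.09) and 0.13 (SE 0.07), so the signs were mixed and none passed the test. As a mean over its probe sets Rplp2 differed by -0.0094. Rpl5 and Rpl11 form the particle with 5S ribosomal RNA that can bind Mdm2 and so link ribosome assembly to p53. Rpl5 stood at 12.23 ± 0.07 (SD, n = 7) and 12.26 ± 0.05 (SD, n = 7), a difference of 0.03 (SE 0.05). Rpl11 differed by -0.003 (SE 0.07), with an interval from -0.16 to 0.15.

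**Figure D2:**
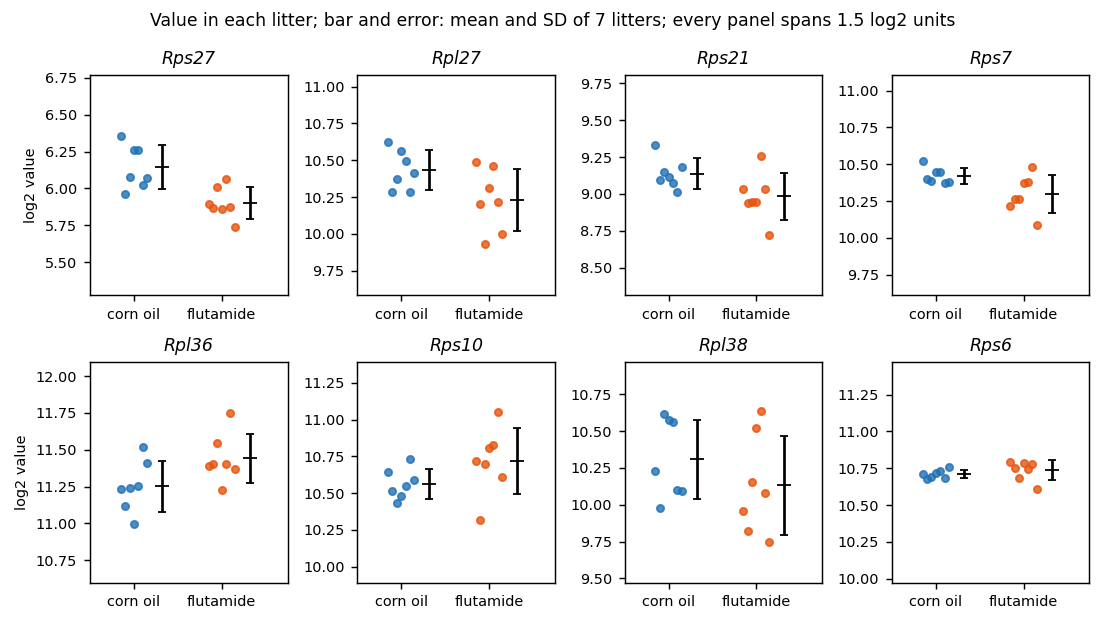
Log2 value in each litter (points) with the mean and SD of 7 litters (bar and error) for 8 ribosomal protein genes; each panel spans 1.5 log2 units. The flutamide points of Rps27 sit low, those of Rpl36 sit high, those of Rpl38 are widely scattered in both groups and those of Rps6 lie close together, and groups overlap in all 8 panels.

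The spread between litters differed widely among the genes. The SD between litters within groups had a median of 0.125 over the 68 genes, against 0.138 over all genes tested and 0.107 over the 1450 brightest. It was above the median of genes of like level in 41 of 68 genes, above their 90th percentile in 14 and below their 10th percentile in 8, where genes of like level are the same 1 of 10 classes by mean. Medians of the subunits were 0.121 for large and 0.126 for small.

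Rpl38, a large-subunit protein needed in mouse embryos for translation of certain Hox mRNAs, had the widest spread, an SD of 0.306. In corn oil litters its values were 9.98 at the lowest, 10.23 at the median and 10.62 at the highest, and in flutamide litters 9.74, 10.08 and 10.64. Both groups held high and low litters, and the difference was -0.18 (SE 0.14). Rps15, which is needed for export of the small subunit from the nucleus, had an SD of 0.259, with group means of 8.08 ± 0.26 (SD, n = 7) and 7.94 ± 0.26 (SD, n = 7).

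Rpsa, also known as the laminin receptor precursor, had an SD of 0.254 and a difference of -0.05 (SE 0.12), which was 0.014 without flutamide litter 1. Rps13 had an SD of 0.244, and flutamide litter 7 stood at 8.90 while the other flutamide litters lay between 9.44 and 9.88. Without that litter and corn oil litter 1 the Rps13 difference was 0.03 in place of -0.11. At the narrow end were Rps6 with 0.052, Rpl5 with 0.059 and Rpl21 with 0.059.

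**Figure D3:**
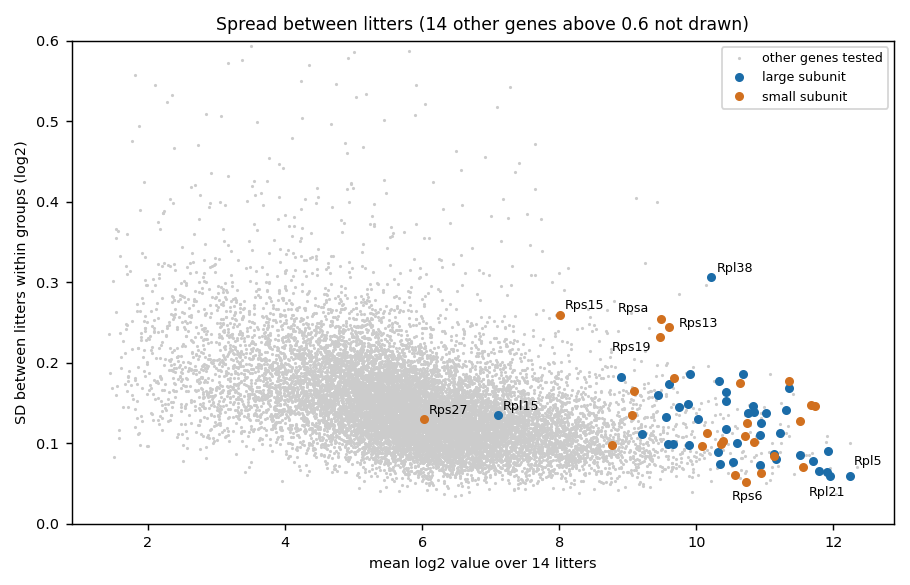
SD between litters within groups (log2, vertical axis) against mean log2 value over 14 litters (horizontal axis) for large-subunit genes, small-subunit genes and all other genes tested (grey; 14 genes above 0.6 not drawn). Rpl38 at 0.306 stands highest of the 68 genes and Rps6 at 0.052 lowest, and all but Rps27 and Rpl15 lie toward the bright side.

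Much of this spread was shared. The first principal component of the values centred within each group held 48.9% of the variance between litters over the 68 genes, 27.1% over the 1450 brightest genes, 24.5% over the 68 mitochondrial ribosomal protein genes and 15.7% over all genes. With each litter centred on its own median of the 68 genes, the median SD was 0.088, and it was smaller than before in 57 of 68 genes. That median came from these same genes, which by itself favours a smaller SD, and no other family was centred on its own median. These shares describe the same 14 arrays and were not tested.

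The shared part was plain in single litters. In flutamide litter 7, 67 of the 68 genes were below the mean of the other 6 flutamide litters, with a median deviation of -0.183, and 0 of the 26 small-subunit genes were above it. In corn oil litter 1, 57 of 68 were above the mean of the other corn oil litters (median 0.148), and in corn oil litter 6, 60 were below (median -0.116). In flutamide litter 5, 60 were above, with a median of 0.148.

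Over all genes tested, these litters had median deviations of -0.004 for flutamide litter 7, -0.003 for corn oil litter 1, 0.0002 for corn oil litter 6 and -0.010 for flutamide litter 5. Bright genes differed more. In flutamide litter 7 the 1450 brightest genes had a median deviation of -0.113, with 16.1% of them above the other litters. Their median was 0.045 in corn oil litter 1, with 65.2% above, and -0.077 in corn oil litter 6, with 78.3% below. In flutamide litter 5 it was -0.007, with 47.7% above. Flutamide litter 7 also had the lowest array SD, 1.48, and corn oil litter 1 the highest, 1.60. Whether array spread has a part in the litter pattern was not tested.

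Without flutamide litter 7 the median difference of the 68 genes was -0.012, with 38 genes (55.9%) below 0 against 47.2% of all genes. Without corn oil litter 1 it was -0.014, with 43 genes (63.2%) below 0 against 48%. Over all omissions of single litters it ran from -0.058 to -0.012. Cell type markers varied between litters as well. Mean values of 5 measured basal keratinocyte markers ran from 8.26 to 8.44 in corn oil and from 8.19 to 8.38 in flutamide litters, with flutamide litter 7 the lowest. Means of 8 fibroblast markers ran from 9.38 to 9.54 and from 9.35 to 9.57, again with flutamide litter 7 the lowest. In flutamide litter 5, where most ribosomal genes were high, the same lists stood at 8.29 and 9.41, and in corn oil litter 1 at 8.38 and 9.54. The macrophage, endothelium and red blood cell lists of corn oil litter 1 stood at 6.25, 7.08 and 6.37, each the highest of the 14 litters. Its lymphocyte list, at 4.95, was near the low end. The red blood cell, lymphocyte and testis germ cell lists of flutamide litter 7 stood at 6.22, 5.08 and 4.73, the last the highest of the 14 litters. The part of these cell types in the litter pattern was not tested.

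**Figure D4:**
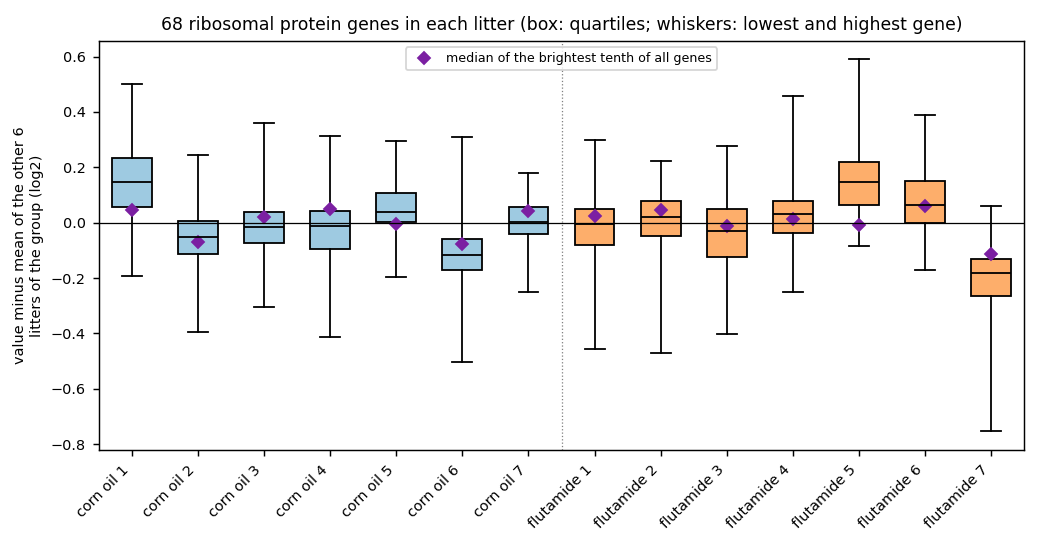
Value of each of the 68 ribosomal protein genes minus the mean of the other 6 litters of its group (log2), as quartile boxes with whiskers to the lowest and highest gene, for each of the 14 litters; diamonds are the medians of the 1450 brightest genes. Corn oil litter 1 and flutamide litter 5 sit high at a median of 0.148 and flutamide litter 7 low at -0.183, while the diamond of flutamide litter 5 is at -0.007.

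The genes carried 222 single-symbol probe sets in all, since 52 of the 68 had more than 1. Ribosomal protein genes have many processed pseudogenes, and a probe set can read more than 1 copy, so values of single probe sets are uncertain as to their source. In a limma fit over all 28826 probe sets, 0 of the 222 had an adjusted p under 0.05 (background 0.00347%), and the lowest was 0.238. The difference was below 0 for 165 of the 222 (74.3%), against 48.4% of all probe sets. At an unadjusted p under 0.05, 23 were lower (10.4%; background 4.31%) and 2 were higher (0.901%; background 5.48%). Without corn oil litter 1 and flutamide litter 7, 129 of the 222 (58.1%) were below 0, against 49.8% of all probe sets, and 11 (4.95%) were lower at that threshold, against 3.46%. Probe sets of 1 gene share its RNA and its sequence and are not independent.

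The 154 probe sets that were not the brightest of their gene held 21 of the 23 lower ones. Their median difference was -0.060, their median level 8.40 and their median SD 0.183. Of the 52 genes with several probe sets, all probe sets were below 0 in 20, all were above 0 in 2, and 30 held both signs. Rpl27 was of the first kind: its 3 probe sets differed by -0.20, -0.24 and -0.22.

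The genes with the highest differences were of the mixed kind. Rpl36, Rps10, Rplp2 and Rpl10 were the multi-probe genes whose brightest probe set differed by more than 0.1, and of their 15 other probe sets 14 were below 0. Of all 154 probe sets that were not the brightest, 115 (74.7%) were below 0. The other probe set of Rpl10 was near 0, at -0.0011. In Rpl36, with 9 probe sets of mean level 5.13 to 11.3, the brightest differed by 0.19 and 7 of the other 8 were below 0. In Rps10 the other 4 were all below 0, the lowest at -0.47. Rpl21 had 19 probe sets, from a mean level of 2.03 to 12.0, of which 17 were below 0.

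**Figure D5:**
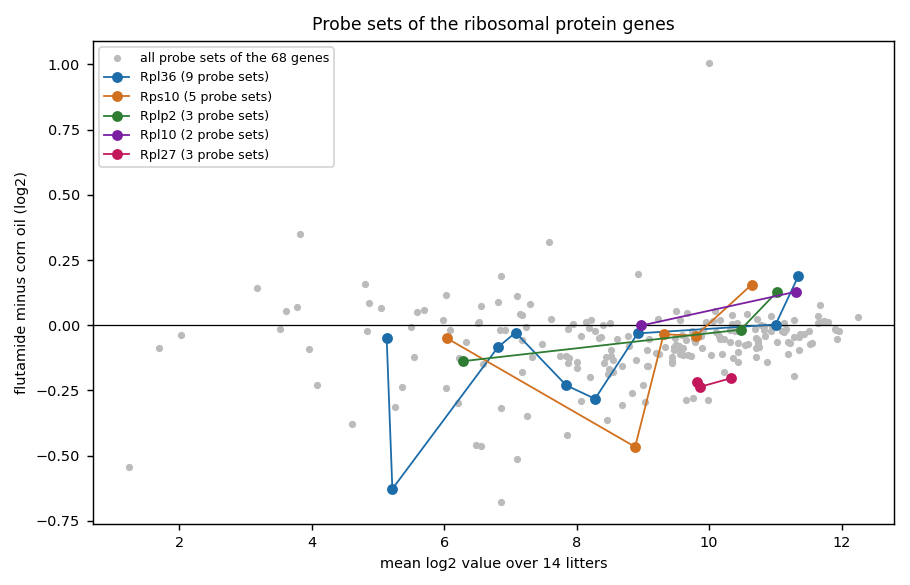
Difference between flutamide and corn oil litters (log2, vertical axis) against mean log2 value over 14 litters (horizontal axis) for the 222 probe sets of the ribosomal protein genes, with lines joining the probe sets of 5 genes. The brightest probe sets of Rpl36, Rps10, Rplp2 and Rpl10 lie above 0 and 14 of their 15 others below it, the 3 of Rpl27 lie together near -0.2, and the point near 1 is the second probe set of Rps25.

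A probe set of Rps25, a small-subunit protein used in some forms of internal initiation, stood apart from all of these. It was singled out after its values were seen. Its corn oil litters were at 9.46, 10.49, 8.43, 9.02, 10.83, 7.09 and 11.12, and its flutamide litters at 10.23, 10.54, 10.96, 9.70, 10.27, 10.70 and 11.10, in order of litter number. The corn oil litters were thus spread far more widely than the flutamide litters, and the groups overlapped. The difference was 1.01 (SE 0.50; limma adjusted p over all probe sets = 0.534). The brightest probe set of the same gene differed by -0.09, with an SD between litters of 0.109 against 1.08.

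Genes with and without the pattern exactly at the annotated start gave like values. The 23 genes with C and 4 pyrimidines at the annotated start had a median difference of -0.043, 19 of them below 0, and a median SD of 0.117. The 35 genes without it had a median difference of -0.026, 24 below 0, and a median SD of 0.125. Within 5 bases of the start, 37 of the 58 genes had the pattern, so the 35 include genes such as Rps21 and Rps10. This split therefore does not separate genes with a TOP tract from genes without one. For the 10 genes outside the table the median was -0.045. Rps27, Rps7 and Rpl10, whose tracts are printed above, stood at opposite ends of the range of differences.

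Genes that work with the ribosome gave small differences too. Of 24 genes of translation known or thought to carry TOP tracts, 20 were measured and 0 passed the test. Their median difference was -0.022, with 15 below 0 (background 47.7% of all genes). The elongation factor Eef1a1 differed by 0.10 (SE 0.06) and Eef2 by 0.001 (SE 0.08). Rack1, a scaffold on the small subunit, differed by -0.03 (SE 0.08) and Fau by -0.015 (SE 0.09).

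Of 48 ribosome assembly factors, 43 were measured, 0 passed and 28 were below 0 (background 47.7% of all genes), with a median of -0.018. Bop1, which processes the large-subunit RNA, differed by 0.15 (SE 0.07; limma adjusted p = 0.512). Nop56, a core protein of the particles that methylate ribosomal RNA, differed by 0.12 (SE 0.06). Of 20 genes that control ribosomal protein synthesis, 18 were measured and 0 passed, with a median of -0.032. In that list Mtor differed by -0.05 (SE 0.05), Rps6kb1, its S6 kinase target, by 0.07 (SE 0.05) and Myc by -0.03 (SE 0.06).

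The 68 mitochondrial ribosomal protein genes, which make up a separate ribosome, had a median difference of -0.043. Of them 45 (66.2%) were below 0, against 47.7% of all genes tested. None passed the test (lowest limma adjusted p = 0.348). At an unadjusted p under 0.05, 9 were lower (background 3.46% of all genes) and 0 were higher (background 5.7%). The counts in the 68 cytosolic genes were 3 and 1. Mrps5 differed by -0.21 (SE 0.06) and Mrps16 by -0.22 (SE 0.07). They too were mostly high in corn oil litter 1, in 54 of 68 genes, and mostly low in flutamide litter 7, where 16 of 68 were above the other litters. Whether the 2 families differ in their response was not tested.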

How the data were processed

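Foreskin RNA of 7 corn oil and 7 flutamide litters was hybridised to 1 array each. The authors deposited log2 RMA values for 28826 probe sets, per the submitters' processing notes and the values, which ran from 0.669 to 13.8. Sample medians lay within 0.073, and depth does not apply to arrays. Of the probe sets, 15209 had 1 gene symbol, 306 several and 13311 none or were not listed in the platform annotation. Symbols were updated by gene number through RefSeq (14471 of 14497 genes matched). Each gene took its brightest single-symbol probe set. Groups were compared with limma 3.58.1 (lmFit and eBayes, R 4.3.3), by two-sided tests adjusted over all genes by the Benjamini-Hochberg method, with no filter on low values. The test was checked on simulated data. The members and lists were chosen with earlier results of these data known.

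Genes named in the text were those of smallest p in each direction, of extreme level or spread, with several probe sets, or of a set role (stalk, 5S particle, paralog partners and the like). Of the paralogs Rpl3l, Rpl10l, Rpl39l and Rps27l, which the rule would admit, none is a member, because no gene tested carried those symbols. Alternatives were another choice of probe set, array centring or scaling, covariates or weights, a block of litter numbers and the omission of litters. Deviations of same-numbered litters had correlations from -0.072 to 0.147, over 0.1 in 1 of 7 pairs, and the main fit did not pair them. Such weak correlations cannot show that the numbers carry no shared handling, which was not tested. Promoters came from RefSeq (GRCr8). Marker lists for skeletal and smooth muscle had median differences of -0.19 and -0.13, for endothelium -0.07, macrophages -0.06, suprabasal epidermis -0.04, basal keratinocytes -0.06 and fibroblasts -0.02. For red blood cells, lymphocytes and testis germ cells the medians were 0.06, 0.05 and 0.06.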

Additional observations from a re-analysis of the deposited data

Results flagged for a closer look

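In corn oil litter 6, Rpl3 stood at 10.42 while the other 6 corn oil litters lay between 10.58 and 10.62. The gap was 0.788 of the group's range. Array SD, over the 14497 genes, was 1.48 in flutamide litter 7 and between 1.54 and 1.57 in the other 6 flutamide litters, a gap of 0.638 of the range. These were 2 of 62 groups of 7 values examined for a sample far from the others (3.23%), and chance alone gives about 1 in 20.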

How the results depend on the processing

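In each of 26 alternatives 0 of the 68 genes had an adjusted p under 0.05, and the lowest adjusted p lay between 0.264 and 0.642. The median difference, -0.041 as reported, ran from -0.067 for the mean of probe sets to 0.007 without corn oil litter 1 and flutamide litter 7, a change of sign, and was also above 0, at 0.003, with the array SD as covariate. These changes were smaller than the SD of single litters in the mean of the 68 genes, 0.071 in corn oil and 0.094 in flutamide litters. That SD is wider than the error of a difference between group means, so the changes are not thereby shown to be small. Counts at an unadjusted p under 0.05 were small and moved. Those lower were 3 as reported (4.41%, against 3.46% of all genes). They were 1 with the array SD as covariate (1.47%, against 3.33%) and 1 without corn oil litter 1 and flutamide litter 7 (1.47%, against 2.87%). They were also 1 with array weights, 5 for the mean of probe sets and 5 after quantile normalisation. Omitting single litters gave 1 to 6, being 1 without corn oil litter 1 or 4 or flutamide litter 3 or 7. Of all genes, 3.15% were lower without corn oil litter 1 and 3.10% without flutamide litter 7. Those higher were 1 as reported (background 5.7% of all genes). They were 4 after centring on the ribosomal protein median (chosen after seeing the data), 0 for the mean of probe sets, 0 after quantile normalisation and 2 with the replicate block. Where no share over all genes is printed, the count cannot be read against a background. Omitting single litters gave 0 to 2. The block of litter numbers left the median at -0.041 and called no gene after adjustment. At an unadjusted p under 0.05 it lost Rps21 and gained Rpl38, lower, and Rpl10, higher.

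Genes below 0 were 33 with the array SD as covariate and 32 without corn oil litter 1 and flutamide litter 7, and from 38 to 54 with single litters left out. These counts, and those of probe sets, were added after seeing the data. Of the 222 probe sets, 15 (6.76%) were lower with the covariate, against 4.32% of all probe sets, 11 (4.95%) without both litters, against 3.46%, 15 (6.76%) without corn oil litter 1, against 3.78%, and 16 (7.21%) without flutamide litter 7, against 3.87%, and 1 was higher without corn oil litter 1. The subunit difference, large minus small, was 0.012 as reported and -0.019 for the mean of probe sets. The median SD between litters was 0.101 with the covariate, 0.097 after centring on the ribosomal protein median and 0.098 without both litters.

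Among genes described above, the sign turned for the mean of probe sets in Rpl36 (-0.13), Rps10 (-0.087), Rplp2 (-0.0094) and Rps18 (-0.17). Without both litters it turned in Rpsa (0.044), Rps13 (0.027) and Rpl11 (0.076), and without flutamide litter 1 in Rpsa (0.014, where omissions of single litters ran from -0.110). Rpl11, near 0, also turned with the covariate (0.059), array weights (0.023), centring on the ribosomal protein median (0.032), quantile normalisation (0.0080) and 5 omissions of single litters, whose range was -0.031 to 0.043. Rpl21 turned after that centring (0.01). The cause of these changes was not tested. Signal of dim probe sets, and sequence shared with pseudogenes, limit what single probe sets show.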
